A study of Mus musculus with 8 samples.

Results

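The miRNA families miR-297, miR-466, miR-467 and miR-669 form a cluster, a large array of mouse miRNA hairpins in an intron of Sfmbt2, the gene of a Polycomb group protein. Its members were chosen by name alone: every mature miRNA in the deposited tables of the families miR-297, miR-466, miR-467 and miR-669, with any letter, copy number or arm. This gave 80 of 1978 miRNA names. Several of these names stand for the same mature miRNA made from different hairpins, and 26 names in 12 groups carried the same values, so each such group was counted as 1. That left 66 distinct members, of which 4 belonged to miR-297, 25 to miR-466, 11 to miR-467 and 26 to miR-669. By arm, 28 were 5p miRNAs, 27 were 3p miRNAs and 11 had no arm in their name. miR-466m-5p and miR-669m-5p shared their values across subfamilies and were counted under miR-466.

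Small RNA was sequenced from 8 libraries, 1 for each group, so no difference below has a replicate check. C2C12 cells, mouse skeletal myoblasts in culture, carried a control hairpin RNA (shNC) or a hairpin RNA against Perk (shPerk) and were sampled at day 0 and at day 3 of differentiation. Another pair of C2C12 libraries came from cells with an empty vector and from cells with ATF4 overexpression, with no day in the labels. Per the paper, the cells of this pair were kept in growth medium and not induced to differentiate. The last pair came from P19 cells, a mouse embryonal carcinoma line, with shNC or shPerk, and neither a day nor an induction state is labelled. Per the methods, the C2C12 lines were made with lentivirus and selected with puromycin, the hairpin RNAs were carried by a pLKO.1 plasmid, and the ATF4 coding sequence stood in a TRE3G vector with an EF1α promoter. The C2C12 controls thus also went through transduction and selection. How the P19 cells were transduced is not stated, and Perk mRNA was not measured in these libraries, so the knockdown was not checked here.

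miRNAs are cut from hairpin RNAs. The 5p arm and the 3p arm of a hairpin come from opposite sides of its stem, and usually 1 arm is kept more often than the other. The Sfmbt2 cluster arose by repeated duplication in rodents, its mature miRNAs are rich in alternating U and G or A and C, and it is known for high levels in early embryonic and placental cells. PERK is a kinase of the endoplasmic reticulum that responds to unfolded proteins, and ATF4 is the transcription factor whose translation rises when PERK is active.

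The name of the cluster was checked against the GENCODE annotation of GRCm38. Sfmbt2 lies at chr2:10370510-10595253 on the plus strand, and 71 of 81 hairpin genes of these 4 numbers lay within it, from Mir466m to Mir669h (chr2:10466663-10518279). All 71 were on the strand of Sfmbt2, and 0 of them overlapped an exon. They all sat in 1 intron of 62472 bp (chr2:10461473-10523944), which is intron 10 or 11 of Sfmbt2, depending on the transcript. The array holds 5 miR-297, 23 miR-466, 14 miR-467 and 29 miR-669 hairpins, with a median of 298.5 bp between the starts of neighbours. The other 10 hairpin genes lay on chromosomes 3, 5, 7, 9, 10, 11 and 13, among them Mir466i on chromosome 13 (chr13:17747473-17747593). By name, 66 members came from the intron, 9 from other loci only, and 5 from both. The number that defines the members is thus not the same as the Sfmbt2 locus, and the members of other loci are described apart.

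**Figure D1:**
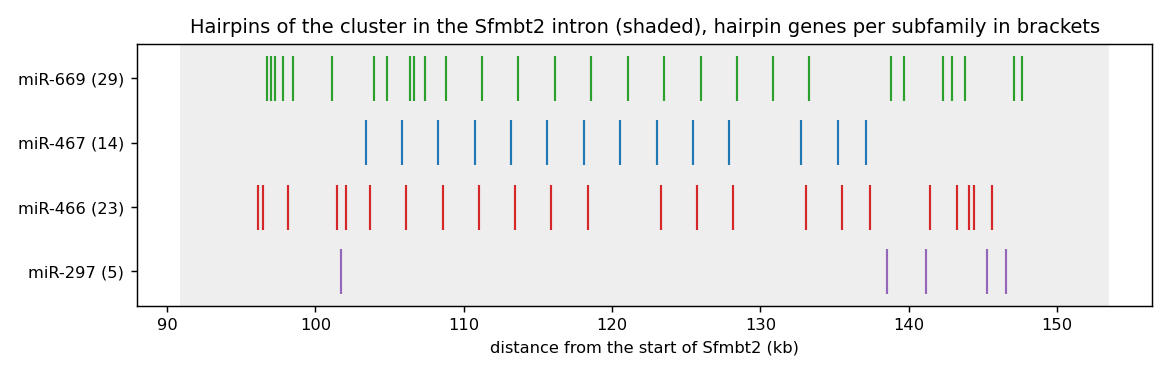
Each tick is 1 hairpin gene of the cluster, plotted by its distance from the start of Sfmbt2 in kb, with 1 row for each subfamily and the intron shaded. miR-466, miR-467 and miR-669 hairpins alternate through most of the array, whereas 4 of the 5 miR-297 hairpins stand near its far end.

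RefSeq sequences (GRCm38.p6) were at hand for 8 of the 80 names, all of them members from other loci. The following 4 are shown because they are the ones with a sequence that had reads in all 4 C2C12 hairpin libraries. Capitals mark the seed, bases 2 to 8, which pairs with target mRNAs.
miR-466i-3p: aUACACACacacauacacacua
miR-466k: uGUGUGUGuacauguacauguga
miR-466j: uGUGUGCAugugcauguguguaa
miR-467h: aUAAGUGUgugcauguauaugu
They lie at chr13:17747552-17747573, chr3:85467396-85467418, chr10:60960802-60960824 and chr9:115381898-115381919, all on the plus strand. The 3p miRNA was built from A and C for 86.4% of its bases, whereas U and G made up 69.6% of miR-466k, 73.9% of miR-466j and 68.2% of miR-467h. The median U and G content of 1730 other mature mouse miRNAs was 54.5%. The 8 members with a sequence had 8 different seeds, and of all other miRNAs in the table only miR-668-5p shared one, that of miR-467h. miR-668-5p had 0 reads in the 4 count libraries. A copy of the miR-297a hairpin outside Sfmbt2, Mir297-1 at chr7:10958437-10958512 on the minus strand, is given as an example of a whole hairpin of this family.
Mir297-1: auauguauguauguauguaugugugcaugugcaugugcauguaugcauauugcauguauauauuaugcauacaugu

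Reads were deposited for the 4 C2C12 hairpin libraries, which held 8800977 to 11993448 reads on miRNAs, and levels there are given as CPM, reads scaled to a common library size. At these depths 3 reads, the limit that a count of 0 allows, corresponded to 0.25 to 0.341 CPM. The ATF4 and the P19 pairs were deposited as RPM, the same scale, with values under 1 listed at 0, so their depth is not stated. Between 92.2% and 95.3% of their values under 600 RPM were whole multiples (within 0.0051 RPM) of 1 step, and if that step is 1 read, 1 RPM stood for 10.6 reads in vector, 12.2 in ATF4, 7.92 in P19 shNC and 4.46 in P19 shPerk. The muscle miRNAs miR-206-3p, miR-1a-3p and miR-133a-3p were present in all C2C12 libraries. In the P19 pair miR-206-3p was not listed. There miR-1a-3p was at 21.2 RPM with shNC and 69.6 RPM with shPerk, above the 6.42 RPM of vector. miR-133a-3p was at 12.1 and 25.6 RPM in P19 cells, under its level in each C2C12 library. The stem cell miRNAs miR-302b-3p and miR-302d-3p were at 76522 and 42087 RPM in P19 shNC and at or under 0.0834 CPM in the 4 C2C12 hairpin libraries. miR-206-3p was at 18280 CPM in shNC and 3651 CPM in shPerk cells at day 0, and at 66926 and 20796 CPM at day 3, so the state of the cells moved together with the hairpin RNA; its part in the results below was not tested.

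The cluster was a small part of the miRNA pool in C2C12 cells and a larger one in P19 cells. Summed over distinct members it reached 1967 CPM in shNC and 2303 CPM in shPerk cells at day 0. At day 3 it reached 2492 CPM in shNC and 3860 CPM in shPerk cells. The vector library held 1741 RPM and the ATF4 library 5003 RPM. P19 cells held 27539 RPM with shNC and 22472 RPM with shPerk, which was 2.75% and 2.25% of their miRNA reads, against 0.174% to 0.5% in the C2C12 libraries. The shPerk library at day 3 and the ATF4 library were thus the highest of the C2C12 libraries, and both P19 libraries stood above all of them. The tables were normalized separately, so the gap between the cell lines is a description without a test. Distinct members may still share reads, because it is not known how reads with several matching miRNAs were assigned, and the sums may count some reads more than once.

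A few members made up most of the cluster. miR-467a-5p, which shares its values with miR-467b-5p and is encoded by 10 hairpins named miR-467a in the array, was the leading member in every library. It had 9317 reads in shNC and 6963 in shPerk cells at day 0, and 12793 and 13288 reads at day 3. As CPM these were 823 (95% Poisson interval 806 to 840), 791 (773 to 810), 1067 (1048 to 1085) and 1409 (1386 to 1434), intervals that cover counting error only. Its RPM was 663 in vector, 2156 in ATF4, 11246 in P19 shNC and 10882 in P19 shPerk cells. It was at rank 84 of 1978 miRNAs in shNC cells at day 0, at rank 62 in shPerk cells at day 3 and at rank 15 of 696 in P19 shPerk cells. Within the cluster it took 34.3% to 48.4% of the summed level.

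miR-669a-5p, identical in its values to miR-669p-5p and encoded by 12 hairpins named miR-669a, came next in every library but shPerk at day 3, where miR-466b-3p, miR-466a-3p and miR-669a-3p stood above it. Its reads were 3696 in shNC and 2800 in shPerk cells at day 0, and 4130 and 4032 at day 3, and its RPM was 401 in vector, 995 in ATF4, 5024 in P19 shNC and 4479 in P19 shPerk cells. Of the 3p miRNAs, miR-466b-3p (shared with miR-466c-3p and miR-466p-3p) and miR-466a-3p (shared with miR-466e-3p) were the highest, except in P19 shPerk cells. There miR-669a-3p (1484 RPM) stood above miR-466a-3p (1430 RPM). miR-466b-3p had 1886 and 2665 reads at day 0 and 3129 and 4522 reads at day 3 in shNC and shPerk cells. miR-466a-3p followed it closely in each library, with 1800, 2543, 3029 and 4323 reads in the same order. miR-669a-3p had 1392 and 1608 reads at day 0 and 2184 and 4224 at day 3, and miR-467a-3p had 1188 and 1485, and 1782 and 3058. These 6 members were the 6 highest in every library but vector, where miR-466i-5p stood above miR-467a-3p, and the 6 highest members together held 86.6% to 92.3% of the summed level in the 8 libraries.

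Most of the other members were scarce. In the 4 count libraries together, 22 of the 66 distinct members had under 10 reads, and 4 (miR-466q, miR-669j, miR-669k-3p and miR-669n) had 0 reads. At 1 CPM or more in at least 1 of these libraries there were 39 distinct members, and at 10 CPM or more there were 17. Of the 80 names, 47 are listed for the ATF4 pair and 64 for the P19 pair. In P19 shNC cells 35 distinct members were above 10 RPM, against 15 above 10 CPM in C2C12 shNC cells at day 0.

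**Figure D2:**
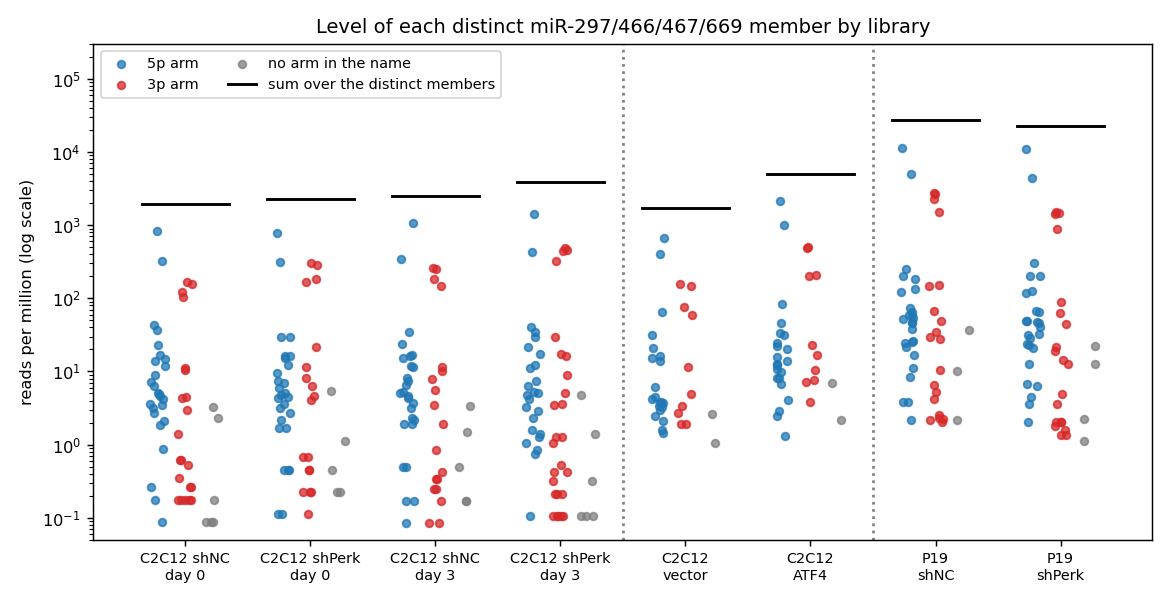
Each point is 1 distinct member with a value above 0, in CPM for the 4 C2C12 hairpin libraries and in RPM for the other 4 (log scale), with 5p, 3p and unnamed arms in separate columns and a black bar at the sum. The sums run from 1741 RPM in the vector library to 27539 RPM in P19 shNC cells, and miR-467a-5p and miR-669a-5p top the 5p column in each library.

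ATF4 overexpression was set against the vector in C2C12 cells to ask which miRNAs follow this transcription factor. Nearly the whole detected cluster was higher in the ATF4 library, in both arms. Of 34 distinct members listed, 26 were higher by more than 1 on the log2 scale and 1 was lower, with a median log2 ratio of 1.44. Over all 605 miRNAs listed, 88 (14.5%) were higher and 54 (8.93%) lower by this limit, with a median of 0.00. A call in this pair means a log2 ratio of RPM beyond 1 after TMM scaling, with no p, and the other 32 distinct members were not listed.

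The leading members rose by similar amounts. miR-467a-5p went from 663 to 2156 RPM (log2 ratio 1.76), and its 3p partner miR-467a-3p from 59.3 to 208 RPM (1.87). miR-669a-5p went from 401 to 995 RPM (1.38) and miR-669a-3p from 76.0 to 204 RPM (1.49). miR-466b-3p went from 155 to 507 RPM (1.77), whereas its 5p partner miR-466b-5p went from 31.6 to 45.6 RPM (0.59) and was not called. By subfamily, 5 of 5 listed miR-467 members were called higher with a median of 1.95, 8 of 10 miR-669 members with 1.40, 11 of 17 miR-466 members with 1.09, and both listed miR-297 members with 1.81. At a mean of at least 10 RPM the largest ratios were those of miR-467e-5p (3.69 to 20.6 RPM, 2.54), miR-467c-5p (20.8 to 84.1 RPM, 2.08) and miR-467a-3p.

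All 10 listed 3p members were called higher (median 1.76), and 14 of 22 listed 5p members (median 1.30). The 7 listed members that were not called were all 5p miRNAs, and 5 of them belonged to miR-466. The only member called lower was miR-466i-5p, which comes from chromosome 13, at 65.7 RPM in vector and 31.1 RPM in ATF4 cells (log2 ratio fell by 1.02). With upper-quartile factors the median of all miRNAs was -0.38 and 18 members were called higher. Over all 605 miRNAs these factors gave 53 higher and 124 lower. Reads rebuilt from the RPM step and put through an exact binomial test, an alternative chosen after the data were seen, gave 26 members higher and 1 lower, the counts of the fold limit. The vector and ATF4 libraries are 1 line each, and how much of the difference comes from the lines themselves cannot be told apart from ATF4.

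PERK knockdown was compared with shNC in C2C12 cells at day 0 and at day 3 to ask which miRNAs depend on this kinase in myoblasts before and during differentiation. The 10 3p members tested at day 0 had a median log2 fold change of 0.91 and the 22 5p members one of 0.16. At day 3 the medians were 1.42 for 14 and 0.48 for 23 members. Some of these 3p members passed the filter only through the shPerk library, where they were high. Among members at 1 CPM or more in both libraries, the day 3 medians were 1.203 for 10 3p and 0.48 for 21 5p members. The filter thus partly set the 3p median of 1.42. The members that fell furthest were 5p miRNAs, namely miR-466m-5p and miR-466i-5p at day 0 and miR-297a-5p at day 3. In these count pairs a miRNA was tested at 1 CPM or more in at least 1 library, and called at a log2 fold change beyond 1 after TMM scaling and an adjusted p under 0.05 (exact binomial test of the reads, two-sided, Benjamini-Hochberg adjustment over all miRNAs tested). Such a call compares 2 libraries, not 2 conditions.

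At day 0, 34 of the 66 distinct members were tested, 3 were called higher and 2 lower, and their median log2 fold change was 0.38. Over all 602 miRNAs tested, 93 (15.4%) were called higher and 111 (18.4%) lower, and the median was -0.06, so the share of members called was below that of all miRNAs. The members called higher were miR-466i-3p (16 to 36 reads, log2 fold change 1.66, 95% interval 0.78 to 2.61), miR-466f-3p (128 to 187 reads, 1.04, 0.71 to 1.38) and miR-466d-3p (50 to 72 reads, 1.02, 0.48 to 1.57). Those called lower were miR-466m-5p, at 100 and 15 reads (fell by 2.23), and miR-466i-5p, at 36.4 and 7.39 CPM (fell by 2.17). Of the tested 3p members 10 of 10 were above 0, and of the 5p members 15 of 22. miR-467a-5p and miR-669a-5p, at 0.077 and 0.096, were below 0 with total-count scaling. miR-466b-3p and miR-466a-3p, both with an interval of 0.91 to 1.08, lay just under the fold limit of 1. With total-count scaling the median of all miRNAs was -0.19, and 1 member was called higher and 3 lower. Over all 602 miRNAs that scaling called 73 higher and 129 lower.

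At day 3 the difference was larger. Of 39 distinct members tested, 14 were called higher and 3 lower. Their median log2 fold change was 0.85. Over all 575 miRNAs tested, 121 (21.0%) were called higher and 119 (20.7%) lower, and their median was 0.01. Of the 14 tested 3p members 12 were called higher, and the 2 others (miR-466f-3p at 0.93 and miR-669f-3p at 0.87) were also above 0. Of the 23 tested 5p members 2 were called higher and 3 lower. However, 5 members passed the filter only through the shPerk library, where they were high, and 4 of these were called higher (miR-467e-3p, miR-669b-3p, miR-669m-3p and miR-669p-3p). At 1 CPM or more in both libraries, a limit chosen after the data were seen, 33 members were left, with a median of 0.73, and calls stood at 10 higher and 2 lower. They held 8 of 10 3p members called higher, and 2 of 21 5p members called higher and 2 lower. With total-count scaling the median of all miRNAs was -0.32, and 7 members were called higher and 3 lower. Over all 575 miRNAs that scaling called 83 higher and 160 lower. With an assumed biological coefficient of variation of 0.4 in edgeR's exact test, 1 member was called higher and 0 lower. Over all miRNAs that test called 38 higher and 13 lower.

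Among the abundant 3p members at day 3, miR-669a-3p rose by 1.63 on the log2 scale (95% interval 1.56 to 1.71), miR-467a-3p by 1.46 (1.37 to 1.54), miR-466b-3p by 1.21 (1.14 to 1.28) and miR-466a-3p by 1.19 (1.13 to 1.26). The 5p partners of miR-467a-3p and miR-669a-3p stayed under the fold limit, miR-467a-5p at 0.73 (0.70 to 0.77) and miR-669a-5p at 0.65 (0.58 to 0.71). Of the 5p partners of miR-466b-3p, miR-466c-5p was called higher (144 to 204 reads, 1.18). miR-466b-5p, with 413 and 380 reads, was above 0 after scaling (0.56, 0.35 to 0.76) but was not called. miR-297a-3p, shared by 3 miR-297 names, went from 120 to 276 reads (1.88, 1.57 to 2.20), while miR-297a-5p went from 55 to 7 reads (fell by 2.28) and miR-297b-5p from 45 to 13 (fell by 1.11). The arms of the miR-297 hairpins thus moved in opposite directions at day 3. At day 0 neither arm of miR-297a had been called, with 120 and 100 reads for the 3p and 52 and 42 for the 5p miRNA. Several called members were near the detection limit: miR-669m-3p had 0 reads in shNC and 12 in shPerk cells, miR-467e-3p had 3 and 12, and miR-669p-3p had 10 and 34.

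**Figure D3:**
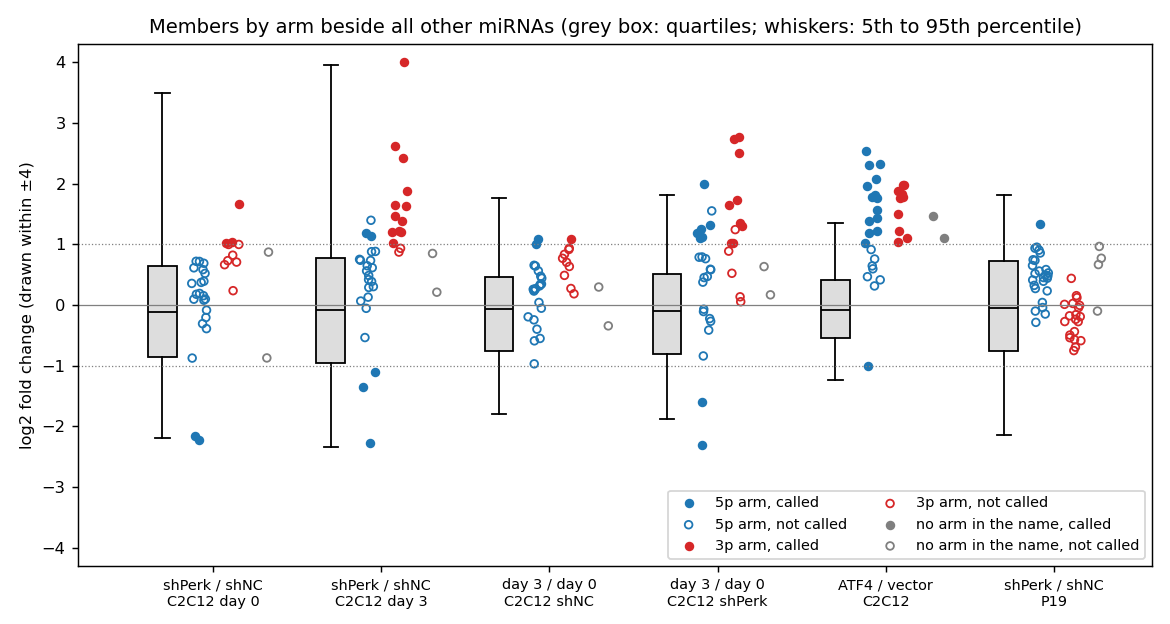
Points are the log2 fold changes of the distinct members tested in each of 6 comparisons, split by arm, with filled points for called members; the grey box shows all other miRNAs tested. Red 3p points lie mostly above blue 5p points in the comparisons of shPerk with shNC in C2C12 cells and below them in P19 cells, and both arms are high in the ATF4 pair. miR-669m-3p at day 3 is drawn at the upper limit of the axis.

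Day 3 was compared with day 0 in each C2C12 line to follow the cluster through differentiation. These 2 comparisons share all 4 libraries with those of shPerk and shNC above, so their values are not separate evidence. In shNC cells 34 distinct members were tested, 3 were called higher and 0 lower, and the median over them was 0.32. All 593 miRNAs tested gave 71 (12%) higher, 84 (14.2%) lower and a median of -0.04. At an unadjusted p under 0.05, with no fold limit, 14 of the 34 members were above 0 (41.2%) and 2 below it (5.88%, miR-466i-5p and miR-466m-5p), against 35.2% and 34.6% of all miRNAs tested. Among the leading members miR-467a-5p was at 0.64 (0.60 to 0.68) and miR-466b-3p at 0.91. The members called higher were miR-466d-3p (50 to 94 reads, 1.09), miR-297b-5p (24 to 45 reads, 1.09) and miR-467d-5p (56 to 99 reads), the last just past the limit. With total-count scaling 0 members were called higher and 1 lower, and the median of all miRNAs was -0.30. Over all 593 miRNAs that scaling called 48 higher and 129 lower.

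In shPerk cells 15 of 39 tested members were called higher at day 3 and 2 lower, and the median over them was 0.79. All 573 miRNAs tested gave 88 (15.4%) higher, 80 (14.0%) lower and a median of -0.05. Here 5 members passed the filter only through the day 3 library, and miR-669b-3p, miR-669m-3p and miR-669p-3p of them were called higher. At 1 CPM or more in both libraries the median of 33 members was 0.63, and calls stood at 12 higher and 1 lower. At 10 or more reads in both libraries, 12 of 33 members and 74 of all 493 miRNAs were called higher. By that filter 1 member and 55 of all miRNAs were called lower. miR-467a-5p went from 6963 to 13288 reads (1.19, 1.15 to 1.23) and was called here, as were miR-669a-3p (1.65, 1.57 to 1.74), miR-467a-3p (1.30, 1.21 to 1.39) and miR-297a-3p (1.72, 1.39 to 2.07). The members called lower were miR-297a-5p (42 to 7 reads, fell by 2.31) and miR-466f-5p (44 to 12 reads, fell by 1.61). With total-count scaling the median of all miRNAs was -0.40, and 5 members were called higher and 3 lower. Over all 573 miRNAs that scaling called 48 higher and 150 lower. Whether the course differs between the lines was not tested, since each line has 1 library a day.

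P19 cells gave the same contrast of shPerk with shNC in a cell type with a far higher level of the cluster. By the fold limit 1 of 26 listed 5p members and 0 of 20 listed 3p members were called. Of 50 distinct members listed, 1 was higher and 0 were lower by more than 1 on the log2 scale, with a median of 0.19. Over all 696 miRNAs listed, 123 (17.7%) were higher and 123 (17.7%) lower with a median of -0.04, so members changed in a smaller share than all miRNAs. The member called was miR-466d-5p, which shares its values with miR-466n-5p, at 3.78 and 6.28 RPM (log2 ratio 1.34). Without further scaling of the RPM values the median was -0.65 for all miRNAs and -0.41 for the members. Of the members 0 were then higher and 7 lower, and of all miRNAs 46 were higher and 247 lower. In this pair the direction of the members thus depends on the scaling, while their median lay above that of all miRNAs with and without it.

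By arm the P19 medians were 0.48 for the 5p members, 22 of which were above 0, and -0.22 for the 3p members, 15 of which were below 0. For miRNAs that were no members they were -0.05 and -0.16. miR-466b-3p went from 2746 to 1490 RPM and miR-466a-3p from 2632 to 1430 RPM, while miR-466b-5p went from 255 to 304 RPM. miR-669a-3p went from 2244 to 1484 RPM and miR-467a-3p from 1520 to 874 RPM. Their 5p partners went from 5024 to 4479 RPM for miR-669a-5p and from 11246 to 10882 RPM for miR-467a-5p. The log2 ratios of these 2 were 0.44 and 0.56 after TMM scaling and -0.17 and -0.048 without further scaling.

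The balance of the arms can be read within a library, where the scaling between libraries does not enter. Summed over distinct members with an arm in their name, the 3p share was 30.2% (95% Clopper-Pearson interval 29.6 to 30.8) in shNC and 43.6% (43.0 to 44.3) in shPerk cells at day 0. At day 3 it was 35.7% (35.1 to 36.2) and 46.7% (46.2 to 47.3). It was 26.8% in vector and 29.5% in ATF4 cells. In P19 cells it was 35.2% with shNC and 24.8% with shPerk. The share was therefore higher with shPerk by 13.4 and 11.1 percentage points in C2C12 cells and fell by 10.4 points in P19 cells, and the intervals of the C2C12 libraries did not overlap. These intervals cover counting error and not the spread between cultures or library preparations. They also take each read as counted once, which is not known here because distinct members may share reads.

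The 3 larger subfamilies differed in their arm balance. miR-466 was mainly 3p, between 71.9% in vector and 92.2% in shPerk cells at day 3. miR-467 was mainly 5p, with a 3p share of 7.3% to 18.1%. miR-669 lay between them, at 15.0% in vector and 48.2% in shPerk cells at day 3. With shPerk the 3p share was higher in C2C12 cells in all 3 of these subfamilies at both days, for example from 74.8% to 90.2% for miR-466 and from 10.9% to 16.7% for miR-467 at day 0. miR-297, with few reads, went the other way at day 0, from 61.2% (54.0 to 68.1) to 58.5% (50.7 to 66.0), and at day 3 went from 54.5% to 93.2%. In P19 cells the 3p share was lower in miR-466, miR-467 and miR-669, going from 90.5% to 82.5% for miR-466, from 11.7% to 7.3% for miR-467 and from 29.2% to 23.4% for miR-669, and it was 72.6% and 65.1% for miR-297. The ATF4 pair differed by subfamily, since the 3p share of miR-466 went from 71.9% to 88.7% while those of miR-467 (7.9% and 8.38%) and miR-669 (15.0% and 16.0%) were close to each other.

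**Figure D4:**
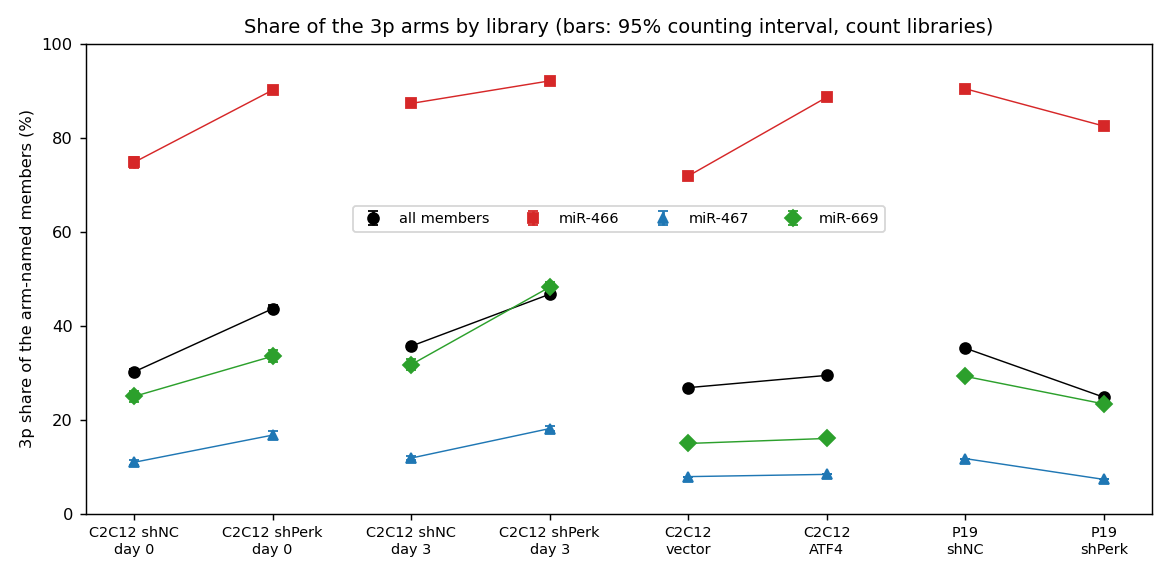
The 3p share (%) of the members with a named arm is plotted by library for all members and for 3 subfamilies, with lines joining the libraries of a pair and bars for the 95% counting interval where reads were deposited. The share of all members goes from 30.2% to 43.6% with shPerk in C2C12 cells at day 0 and from 35.2% to 24.8% in P19 cells.

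Single hairpin names gave the same picture. Where both arms had at least 10 reads in both libraries, the ratio of 3p to 5p reads was compared between shPerk and shNC. It was higher with shPerk for 13 of 14 member hairpins at day 0 (median log2 change 0.71) and for 14 of 14 at day 3 (0.85). Among other hairpins it was higher for 78 and lower for 56 at day 0 (median 0.09), and higher for 56 and lower for 63 at day 3 (-0.02). In P19 cells, at 1 RPM or more for both arms, it was lower for 22 of 25 member hairpins (median -0.93) and for 92 of 176 others (-0.02). Single other hairpins moved as far: 18.7% of them at day 0, 22.7% at day 3 and 17.6% in P19 cells were at or beyond the median of the members. Member hairpins share arms, since miR-466b, miR-466c and miR-466p all use the same 3p value, so they are not independent of each other.

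The largest arms of the cluster illustrate this. For miR-467a the ratio of 3p to 5p reads was 0.128 and 0.213 at day 0 and 0.139 and 0.23 at day 3 in shNC and shPerk cells, log2 changes of 0.74 (95% interval for counting error 0.66 to 0.82) and 0.72 (0.66 to 0.79). In P19 cells it was 0.135 and 0.0803 (log2 change -0.75). For miR-466b it was 3.87 and 10.1 at day 0, 7.58 and 11.9 at day 3, and 10.7 and 4.91 in P19 cells. With ATF4 the ratio of miR-467a was 0.0894 and 0.0964, and that of miR-466b 4.93 and 11.1. The median of 13 member hairpins in the ATF4 pair was 0.11, with 9 toward 3p, and that of other hairpins -0.10, with 58 toward 3p and 78 toward 5p. The ratio of the 3p to the 5p arm also moved between days, with a median of 0.43 in shNC cells (14 member hairpins) and 0.44 in shPerk cells (13), against 0.00 and -0.02 for other hairpins.

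**Figure D5:**
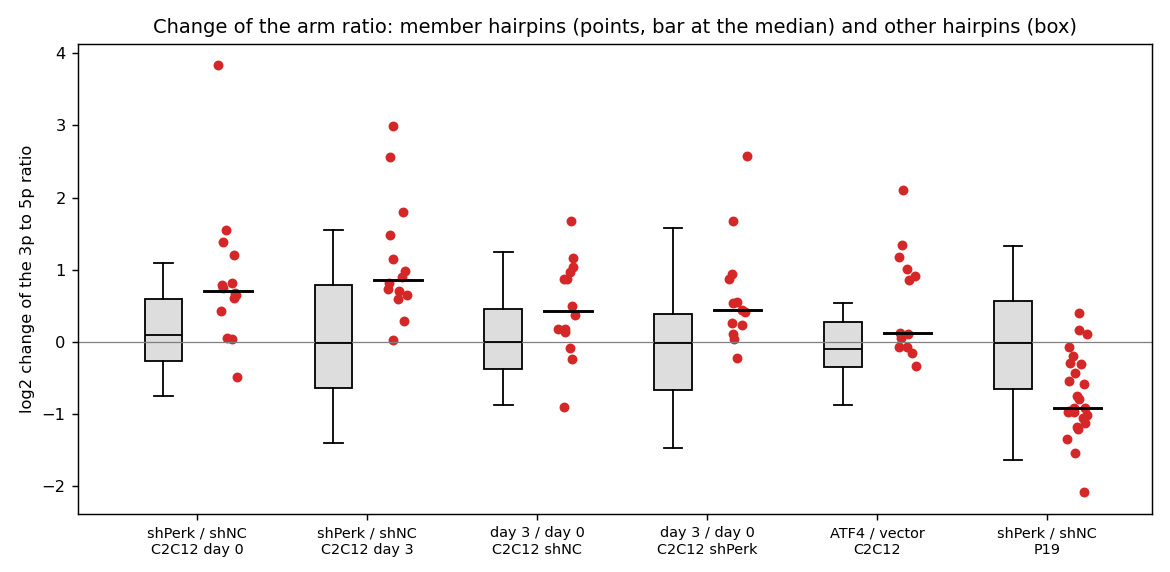
Red points give the log2 change of the 3p to 5p ratio of each member hairpin name in 6 comparisons, with a bar at their median, beside a box of all other hairpins. The medians are 0.71 and 0.85 for shPerk in C2C12 cells and -0.93 in P19 cells, and those of other hairpins lie between -0.10 and 0.09.

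miR-574, a hairpin on chromosome 5 outside the cluster that is known for a run of U and G in its 5p arm, was set beside the members. It was chosen after earlier results of these data were known. Its RefSeq sequences are given for comparison with those of the members, with the seed in capitals (chr5:64970328-64970350 and chr5:64970364-64970385, plus strand).
miR-574-5p: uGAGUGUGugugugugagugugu
miR-574-3p: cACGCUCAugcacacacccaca
Its 3p miRNA had 694 and 1250 reads and its 5p miRNA 556 and 355 reads in shNC and shPerk cells at day 0, ratios of 1.25 and 3.52 (95% interval of their log2 change 1.33 to 1.66). At day 3 the change was 0.80 (1420 and 2030 reads for 3p, 590 and 484 for 5p). In P19 cells it was -0.72, with 10.2 and 6.96 RPM for 3p and 11.6 and 13.0 RPM for 5p. The ratio of its arms thus changed in the direction of the members' median in all 3 comparisons. Neither a cause in the cells nor one in the making of the libraries was tested.

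miR-466i-5p stood apart from the other 5p members. Mir466i lies on chromosome 13, outside Sfmbt2. miR-466i-5p was at 36.4 CPM (95% Poisson interval 33.0 to 40.1) in shNC and 7.39 CPM (5.70 to 9.41) in shPerk cells at day 0, and at 15.4 CPM (13.3 to 17.8) and 4.77 CPM (3.48 to 6.39) at day 3, and it was called lower at both days, by 2.17 (95% interval 1.79 to 2.57) and by 1.36 (0.88 to 1.86) on the log2 scale. The adjusted p of the exact binomial test on these libraries was 2.76e-39 at day 0 and 2.1e-09 at day 3. From day 0 to day 3 in shNC cells it fell by 0.97, just under the limit. In the ATF4 pair it was lower too, and in P19 cells it was at 59.8 RPM with shNC and 47.3 RPM with shPerk, so the cell lines differed less for it than for any of the 6 leading members: the P19 shNC level was 1.64 times the C2C12 shNC level at day 0, against 13.7 times for miR-467a-5p. Its 3p partner miR-466i-3p, whose sequence is given above, had 16, 36, 23 and 33 reads and was called higher at both days. The pair had the largest log2 change of the arm ratio at day 0, 3.83 (3.19 to 4.48).

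Among the other members that lie only outside the intron, miR-466k alone reached 10 reads in each count library, with 26 and 10 reads at day 0 and 18 and 13 at day 3, and 1.04 and 2.14 RPM in the ATF4 pair. miR-466j had 1 to 6 reads and miR-467h 1 to 2, and miR-466q, miR-467f, miR-467g and miR-669n had 0 to 2. Summed over the 9 distinct members of other loci (3 of them listed in the ATF4 table and 5 in the P19 table), the level was 40.5 CPM in shNC and 13.5 CPM in shPerk cells at day 0, 19.5 and 10.2 CPM at day 3, 68.6 and 37.1 RPM in vector and ATF4 cells, and 107 and 77.6 RPM in P19 cells. miR-466i-5p was the largest of them in each library. Members of the intron alone summed to 1895 and 2247 CPM at day 0, 2445 and 3801 CPM at day 3, 1649 and 4908 RPM in the ATF4 pair and 27037 and 22137 RPM in P19 cells. Without miR-466i-5p the sum of the other loci was 4.06 and 6.14 CPM at day 0, 4.09 and 5.41 CPM at day 3, 2.93 and 6.0 RPM in the ATF4 pair and 47.0 and 30.3 RPM in P19 cells. The lower sums of the other loci with shPerk and with ATF4 in C2C12 cells thus rested on miR-466i-5p, and without it these sums were higher. For shPerk, however, the Poisson intervals of the sums without miR-466i-5p overlapped at both days. At day 0 they were 2.97 to 5.42 CPM in shNC and 4.61 to 8.01 CPM in shPerk cells. Within these sums miR-466i-3p rose with shPerk, from 16 to 36 and from 23 to 33 reads. miR-466k was not called at either day, with log2 fold changes of -0.87 at day 0 and 0.21 at day 3. A shared rise of the other loci with shPerk is thus not shown. These sums were not tested.

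miR-466m-5p, whose values equal those of miR-669m-5p, had a course of its own. It had 100 reads in shNC and 15 in shPerk cells at day 0, and 60 and 50 reads at day 3. It was called lower with shPerk at day 0 and higher from day 0 to day 3 in shPerk cells (1.99, 1.14 to 2.93), both of which rest on the 15 reads of the shPerk library at day 0. In the ATF4 pair it was at 4.25 and 8.2 RPM and in the P19 pair at 37.6 and 24.0 RPM.

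Other large miRNA clusters were set beside the members in the same libraries. Of miRNAs of the Dlk1-Dio3 region, 80 were listed in P19 cells and 72 of them were lower with shPerk by the fold limit, with a median of -1.78, against 0 of 50 distinct members of the Sfmbt2 cluster. In the C2C12 hairpin libraries only 1 or 2 of them passed the filter. Of an X-linked cluster, 25 of 25 tested miRNAs were called higher with shPerk at day 0 (median 4.10) and 24 of 24 at day 3 (5.25). The members of the Sfmbt2 cluster had medians of 0.38 and 0.85 there. Only 15 of the X-linked miRNAs reached 1 CPM in the shNC library of either day. The others tested passed the filter only through a shPerk library, where they were high, so the filter partly set these counts and medians. With ATF4 the Sfmbt2 cluster had the larger share called, 26 of 34 against 7 of 13 X-linked miRNAs and 0 of 3 of the Dlk1-Dio3 region (1 was called lower). The X-linked miRNAs moved the same way there, with 12 of 13 above 0 and a median of 1.13, against 1.44. From day 0 to day 3 in shPerk cells 13 of 26 X-linked miRNAs were called higher and 1 lower (median 0.94). The members had 15 of 39 higher there (median 0.79), and all miRNAs 15.4%. In P19 cells 14 of 16 X-linked miRNAs were higher with shPerk (median 1.48), against 1 of 50 members. These comparisons of clusters were not tested.

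In the ATF4 pair 20 of 27 listed members of the intron alone were called higher. The rise was not limited to them. Of 3 listed members from other loci only, miR-466i-3p (1.89 to 3.86 RPM) and miR-466k (1.04 to 2.14 RPM) were called higher and miR-466i-5p lower. For the members of the intron, 1 of 2 windows before a start of Sfmbt2 is shown (RefSeq, GRCm38.p6, chr2:10372186-10372435, plus strand, 250 bases, 60.8% G and C). It lies within the GENCODE span of the gene, whereas the other window, chr2:10370201-10370450, lies before that span.
Sfmbt2 upstream window: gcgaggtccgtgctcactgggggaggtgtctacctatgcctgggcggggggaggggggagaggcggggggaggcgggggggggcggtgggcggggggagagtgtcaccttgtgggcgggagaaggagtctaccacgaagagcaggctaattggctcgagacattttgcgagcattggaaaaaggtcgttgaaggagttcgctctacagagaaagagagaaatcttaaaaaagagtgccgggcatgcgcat
Both RefSeq windows of Sfmbt2, each of 300 bases (250 before and 50 after a start), were searched on both strands for TGATGNAAN, a short form of the C/EBP-ATF response element, for TGACGTCA, the cAMP response element, and for CANNTG, the E-box bound by myogenic factors. There were 0 matches to each in both windows. Of 32851 promoter windows of the same length, 3.95% held the first motif, 1.79% the second and 72.3% the third. The absence of these letters from 2 short windows says nothing of the binding of any factor.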

How the data were processed

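Small RNA libraries were made and sequenced by a company, and reads were aligned with bowtie to the genome and to known RNAs (mm10 per the submitters' notes). The bowtie version and the handling of reads with several matches are not given in the sources used here. The authors deposited raw read counts per mature miRNA for the 4 C2C12 hairpin libraries and RPM for the other 4, in 5 tables. Columns shared between the count tables were identical. Their columns of log2 fold changes, p-values and q-values hold the authors' own comparisons and were not used.

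In each count pair, miRNAs at 1 CPM or more in at least 1 library were kept. TMM factors were taken from edgeR 4.0.16 (R 4.3.3), and fold changes were computed with a prior count of 0.125. Reads were compared by a two-sided exact binomial test in R with Benjamini-Hochberg adjustment over all miRNAs tested. Intervals are 95% Clopper-Pearson or Poisson intervals and cover counting error only, as reads without molecular identifiers are not independent molecules. Log2 ratios of 3p to 5p reads carry 95% intervals from the counts. RPM pairs were scaled by TMM with values at 0 set to 1 RPM, and called by a log2 ratio beyond 1 alone. Scripts were tested on simulated data. With 1 library per group, a p-value compares libraries and not conditions.

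Names were counted as 1 member where their reads were identical in the 4 count libraries, or, under 10 reads in all, where their RPM was identical as well. The plan asked for identical values in every library, but a few pairs with identical reads differed slightly in RPM, so this departs from the plan. Strict identity in all 8 libraries gave 68 distinct members. The members and the lists of other clusters were chosen with earlier results of these data known. Named members were the 10 with the highest mean over the C2C12 hairpin libraries, the P19 pair and the ATF4 pair, the 3 called in each direction with the largest change where the mean reached 10 CPM or RPM, and each one's other arm. Any other member is named because its call, locus or arm is described, and was chosen after its values were seen. Alternatives were total-count, upper-quartile and DESeq2 1.42.0 median-of-ratios scaling, other filters (among them 1 CPM in both libraries, chosen after the data were seen), a prior count of 2, edgeR's exact test at assumed coefficients of variation of 0.2 and 0.4, other values for 0 RPM, every name counted, and the 3p share without the most abundant member. Hairpins were placed with GENCODE M21 on GRCm38.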

Additional observations from a re-analysis of the deposited data

Results flagged for a closer look

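The change of the 3p share with shPerk had opposite signs in the cell lines. It was 13.44 percentage points in C2C12 cells at day 0, 11.06 points at day 3 and -10.44 points in P19 cells. Each value compares 1 library with 1 library, the C2C12 values rest on reads and the P19 value on RPM, and the difference between the cell lines was not tested.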

How the results depend on the processing

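No paired analysis was possible because each group has 1 library and the labels give no replicate numbers, and for the same reason no replicate could be left out. For shPerk against shNC at day 0 (3 members higher, 2 lower), 1 was higher with total-count scaling, 5 with median-of-ratios factors, 5 without a filter, 1 at 10 or more reads in both libraries, 1 in edgeR's exact test with the coefficient of variation set to 0.2 and 0 at 0.4, where 0 were lower. At day 3 (14 and 3), 7 were higher with total-count scaling and 1 at a coefficient of 0.4, where 0 were lower. Of all 575 miRNAs, 83 were higher with total-count scaling and 38 at a coefficient of 0.4. From day 0 to day 3 in shNC cells (3 and 0), 0 were higher with total-count scaling, upper-quartile factors and coefficients of 0.2 and 0.4, and 5 without a filter, while 1 was lower with total-count scaling, upper-quartile factors and the 10-read filter. In shPerk cells (15 and 2), 5 were higher with total-count scaling, 8 at a coefficient of 0.2, 0 at 0.4 and 24 with every name counted, while 1 was lower with the 10-read filter and 0 at 0.4. In P19 cells (1 and 0), 0 were higher and 7 lower without further scaling, and 2 were higher with 0 set to 0.5 RPM or with every name counted. Without further scaling 46 of all 696 miRNAs were higher and 247 lower. The ATF4 counts stayed within 1.5 times of 26 and 1 under the alternatives run. Summing every name gave 3914, 4718, 5071 and 7994 CPM in the hairpin libraries (shNC and shPerk at day 0, then at day 3), 3451 and 10163 RPM in vector and ATF4, and 56354 and 45179 RPM in P19 shNC and shPerk. Without miR-467a-5p the 3p shares were, in the same order, 52.0%, 66.6%, 62.5%, 73.7%, 43.4%, 51.8%, 59.6% and 48.1%. With 1 CPM or more required in both libraries, chosen after the data were seen, 1 member was lower from day 0 to day 3 in shPerk cells. Of 640 values of single members under these alternatives, 560 kept direction and side of the threshold, 49 lost their call, 10 gained one and 21 changed sign. None of the 21 was called under either setting. At day 0 miR-467a-5p was at -0.0568 and -0.0300 and miR-669a-5p at -0.0372 and -0.0104 (total-count scaling, then 10 reads in both libraries). From day 0 to day 3 in shNC cells, total-count scaling gave -0.0830 for miR-297a-3p, -0.2259 for miR-466c-5p, -0.0091 for miR-467e-5p and -0.0380 for miR-669b-5p. There miR-466c-5p was at -0.0725 with upper-quartile factors and -0.0178 with the 10-read filter, and miR-466b-5p at 0.0368 without a filter. In shPerk cells miR-466f-3p was at -0.3062 and -0.0634 with total-count scaling and upper-quartile factors. In P19 cells without further scaling, miR-466i-5p was at -0.3361, miR-467a-5p at -0.0477, miR-467c-5p at -0.0232, miR-467e-5p at -0.1302, miR-669a-3p at -0.5969, miR-669a-5p at -0.1659 and miR-669b-5p at -0.1551, and miR-669a-3p was at -0.1308 with upper-quartile factors. The cause of these shifts was not tested. Depth limits the 22 members under 10 reads, for which no difference was detectable here.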
